A study of Arabidopsis thaliana with 4 samples.

Results

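Aliphatic glucosinolates are sulfur-rich defence compounds that Arabidopsis makes from methionine. Methionine is first lengthened by rounds of chain elongation, the product is then built into the glucosinolate core by cytochrome P450 enzymes, a C-S lyase, glucosyltransferases and sulfotransferases, and the side chain is modified last. MYB transcription factors of one small clade switch on the genes of the whole route, and stress hormones and sulfur supply are known to act on it. The 10 genes described here were chosen by locus and cover regulation, chain elongation and the core structure. They are the regulators MYB28 (AT5G61420) and MYB29 (AT5G07690), the chain elongation genes BCAT4 (AT3G19710), MAM1 (AT5G23010) and MAM3 (AT5G23020), and the core structure genes CYP79F1 (AT1G16410), CYP79F2 (AT1G16400), CYP83A1 (AT4G13770), SUR1 (AT2G20610) and UGT74C1 (AT2G31790). All 10 had a probe on the array and all 10 were among the 21732 genes tested, of 34261 on the array.

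RNA came from whole seedlings of the wild type Col-0 (2 arrays) and of sahy9-1 (2 arrays), the mutant also called sahy9/apum23. This mutant line carries a T-DNA in an exon of APUM23, which encodes a nucleolar Pumilio protein of pre-rRNA processing, and its seedlings are smaller with shorter roots than the wild type. Both genotypes were grown for 10 days and then kept for 1 day on 150 mM NaCl, so every value below is a comparison of genotypes under salt. The replicates of a genotype are 2 biological experiments according to the methods, only 1 mutant allele was on the arrays, and how many seedlings went into a sample is not given in the sources used here. The p-values below measure the spread between these samples only.

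Each RNA sample was hybridized, with Cy3 as the only dye, to 1 of the 4 Agilent arrays of 1 slide, all with the same scan time. Between 74.6% and 76.3% of the gene spots on an array were well above background, 0 were saturated, and the number of arrays limits the precision. APUM23 checked the labels, as it lay at -0.61 and -0.41 in Col-0 and at -3.34 and -3.58 in sahy9-1, a 7.71-fold decrease (adjusted p = 0.000979). The mean over its 2 probes, of which the other was well above background on 0 arrays, gave -1.92 on the log2 scale beside -2.95. Where its probe lies relative to the insertion was not examined. Markers of both organs were well above background on all 4 arrays, 7 of 7 for photosynthetic tissue and 9 of 9 for root. The summed signal of the photosynthetic markers ranged from 397 to 418 in Col-0 and from 350 to 363 in sahy9-1, in units of the 75th percentile of an array, and that of the root markers from 52.7 to 54.5 and from 44.2 to 44.4. Most of the root sum was PYK10. The other 8 root markers summed to 3.39 to 4.02 in Col-0 and to 4.07 to 4.54 in sahy9-1. This list was chosen after seeing the data and includes NRT2.1. That gene lay at -0.28 and -0.21 in Col-0 and at 0.84 and 0.41 in sahy9-1, on the log2 scale with the 75th percentile of an array at 0. A sum without NRT2.1 was not formed, so a rise of the remaining root markers was not shown. Log2 fold changes of the 9 root markers, sahy9-1 minus Col-0, ranged from -0.36 for COBL9 to 0.87 for NRT2.1, with a median of -0.049. The next highest was MYB36, at 0.31. The summed signal of 5 vascular markers ranged from 7.22 to 8.26 in Col-0 and from 6.16 to 6.61 in sahy9-1, and that of 3 markers of myrosin and guard cells from 24.5 to 26.2 and from 24.4 to 25.2. The 5 vascular markers did not move together. Their log2 fold changes ranged from -0.72 for IRX3 to 0.19 for APL, with a median of -0.32, and XCP1 was at -0.051. None of the markers in these lists was at 0. The part of these shifts in the results below was not tested. In whole seedlings, fewer cells of a type and less RNA per cell cannot be told apart.

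The 10 genes did not move in 1 direction in sahy9-1. Of the 10 genes only MAM3, which was 2.00-fold higher, and MYB29, which was 1.47-fold lower, passed an adjusted p of 0.05 or less in limma, which fits each gene and borrows information on the spread from the others. This is 20% of the genes, while 49.4% of all genes tested passed the same threshold, 25.4% higher and 24% lower. None of the 10 also reached the study's 3-fold threshold, which 3.24% of all genes tested passed together with the adjusted p, 1.66% higher and 1.59% lower. At 2-fold 8.37% of all genes passed, 4.09% higher, and again none of the 10, as MAM3 lay just under the line. At an unadjusted p of 0.05 or less 3 of the 10 passed. The share of all genes there is at least the 49.4% above, as adjustment never lowers a p-value. By the t-test named in the methods 0 of the 10 passed after Benjamini-Hochberg adjustment, where 0.428% of all genes passed. The median log2 fold change of the 10 genes, sahy9-1 minus Col-0, was -0.16, beside -0.0041 over all genes tested, and the median size of the change was 0.23 beside 0.28. The count depended on single arrays. It rose to 5 without Col-0 replicate 1, when 36.9% of all genes passed, and fell to 1 without sahy9-1 replicate 2, when 21.4% passed.

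**Figure D1:**
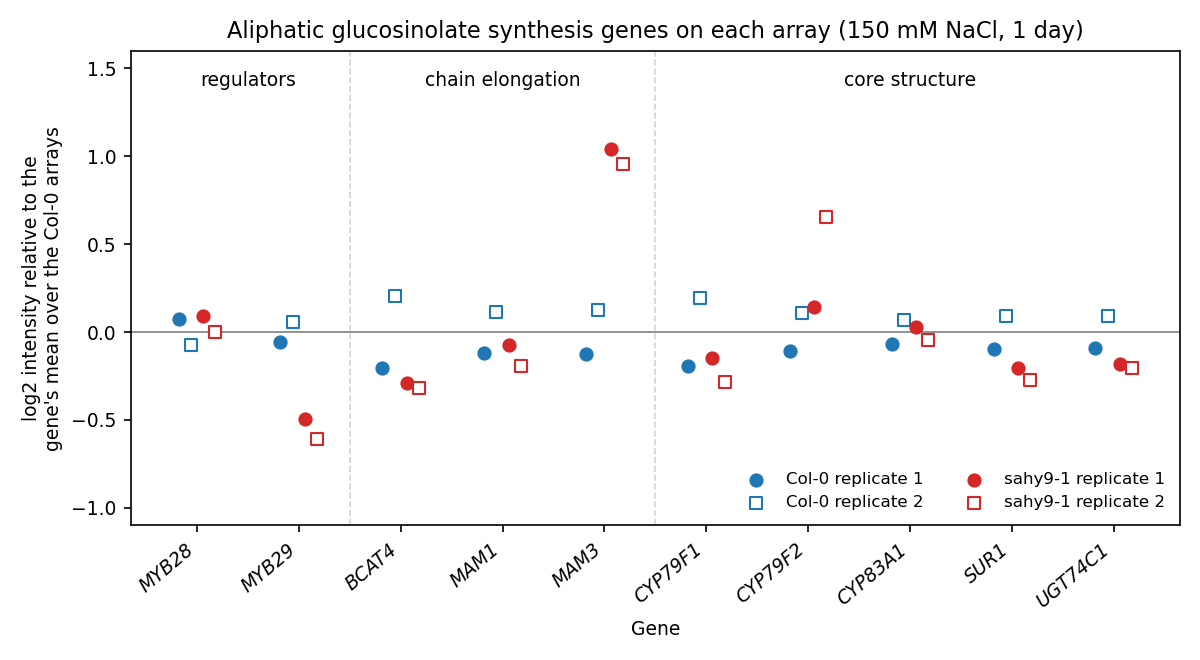
Log2 intensity of each of the 10 genes on each of the 4 arrays (points), relative to the mean of that gene over the Col-0 arrays, with genes grouped by role along the x axis. MAM3 in sahy9-1 lay about 1 unit above Col-0 and MYB29 about 0.55 units below, while for MYB28, BCAT4, MAM1, CYP79F1 and CYP83A1 the Col-0 arrays lay farther apart than the genotype means.

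MYB28 and MYB29 are the main activators of the route, with MYB28 the stronger regulator in the known mutants. Levels are given throughout on the log2 scale, with the 75th percentile of an array at 0, and levels of different genes come from different probes and are not set against each other. MYB28 lay at -2.02 and -2.17 in Col-0 and at -2.0 and -2.09 in sahy9-1. The genotypes overlapped, and the log2 fold change was 0.046 (SE 0.084, 95% interval -0.18 to 0.27, adjusted p = 0.674). MYB29 lay at 0.42 and 0.54 in Col-0 and at -0.012 and -0.13 in sahy9-1. Both mutant arrays were below both wild-type arrays, and the log2 fold change was -0.55 (SE 0.081, 95% interval -0.77 to -0.34, adjusted p = 0.00776). Without sahy9-1 replicate 2 it was -0.49 with an adjusted p of 0.0563. The difference between the changes of the 2 activators was 0.60 on the log2 scale. The ratio of MYB28 to MYB29 was higher on both mutant arrays than on both wild-type arrays, for which an exact two-sided permutation test gave p = 0.333, the smallest value that 2 arrays against 2 allow.

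MYB76, the remaining activator of this clade, lies next to MYB29 on chromosome 5 in the TAIR10.1 annotation. It lay at -3.90 and -3.26 in Col-0 and at -4.75 and -4.91 in sahy9-1, a 2.37-fold decrease (log2 fold change -1.24, SE 0.23, adjusted p = 0.0129). Its intensities were 190 and 283 in Col-0 and 124 and 98.4 in sahy9-1, so it was tested only because of its higher wild-type values. This call was lost without either mutant array, with adjusted p of 0.0504 and 0.0642, with normexp background correction, with an adjusted p of 0.155, and without a signal filter, with an adjusted p of 0.0554.

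MAM3 encodes a methylthioalkylmalate synthase, the condensing enzyme of the elongation cycle, and is known for the synthesis of long-chain glucosinolates. It is listed as IMS2 in RefSeq, with MAM3 as a synonym. MAM3 lay at -0.33 and -0.080 in Col-0 and at 0.84 and 0.75 in sahy9-1. Both mutant arrays were above both wild-type arrays by more than the spread within either genotype, and the log2 fold change was 1.0 (SE 0.11, 95% interval 0.72 to 1.28, adjusted p = 0.00428). Leaving out any 1 array gave 0.88 to 1.12, and each of these passed the adjusted p.

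MAM1, the tandem copy of MAM3 on chromosome 5, encodes the synthase known for short-chain products. Its level was 3.42 and 3.65 in Col-0 and 3.46 and 3.34 in sahy9-1. The groups overlapped, and the log2 fold change was -0.13 (SE 0.11, 95% interval -0.41 to 0.15, adjusted p = 0.338). The other 2 probes for MAM1 gave -0.13 and -0.035. Set to a mean of 0 in Col-0, the log2 ratio of MAM3 to MAM1 was -0.0061 and 0.0061 on the wild-type arrays and 1.12 and 1.15 on the mutant arrays. This ratio varied less between replicates than either gene alone. The difference of 1.13 again had an exact two-sided permutation p of 0.333, the smallest possible. MAM3 was measured by 1 probe, and how far it also binds transcripts of MAM1 was not examined, as probe sequences were not used here.

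BCAT4, the aminotransferase that starts chain elongation by removing the amino group of methionine, lay at 1.06 and 1.47 in Col-0 and at 0.97 and 0.95 in sahy9-1. The mutant arrays were below the wild-type arrays, but the wild-type arrays were farther apart than that gap. Its log2 fold change of -0.30 did not pass (SE 0.15, 95% interval -0.70 to 0.093, adjusted p = 0.157). Without Col-0 replicate 1 it was -0.51 with an adjusted p of 0.0204.

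The other measured genes of elongation are the aminotransferase BCAT3, the transporter BASS5, the isomerase subunits IPMI LSU1, IPMI SSU2 and IPMI SSU3 and the dehydrogenase IPMDH1. Of these 6 only BCAT3 passed the adjusted p. It lay at 2.76 and 2.91 in Col-0 and at 3.30 and 3.25 in sahy9-1, a 1.36-fold increase (adjusted p = 0.0126) that did not pass without either mutant array (adjusted p of 0.0810 and 0.0692). Taken with the 3 genes above, 2 of 9 elongation genes rose and 0 fell, where 25.4% of all genes tested rose and 24% fell, and the median log2 fold change was -0.071.

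None of the 5 core structure genes passed the adjusted p. CYP79F1 turns chain-elongated methionine of all lengths into aldoximes, while its tandem copy on chromosome 1, CYP79F2, accepts only the longer ones. CYP79F1 lay at 1.34 and 1.73 in Col-0 and at 1.39 and 1.25 in sahy9-1. The groups overlapped, and its 2 probes agreed at a log2 fold change of -0.22 and -0.21 (SE 0.15, 95% interval -0.61 to 0.18 and adjusted p = 0.284 for the brighter probe). Without Col-0 replicate 1 the value was -0.41, with an adjusted p of 0.0489.

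CYP79F2 was dim, with intensities of 87.1 and 96.5 in Col-0 and 121 and 153 in sahy9-1. Genes were tested when both arrays of a genotype reached 100, so this gene was tested only because of its higher mutant values. Its log2 fold change was 0.40 (SE 0.19, 95% interval -0.11 to 0.91, adjusted p = 0.151). The mutant arrays were above the wild-type arrays but differed from each other by 0.51, and normexp background correction turned the value to -0.49. Without sahy9-1 replicate 1 it was 0.65 with an adjusted p of 0.0468, and without sahy9-1 replicate 2 it was 0.14.

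CYP83A1, which oxidises the aldoximes, lay at 3.55 and 3.69 in Col-0 and at 3.65 and 3.57 in sahy9-1, and the groups overlapped. The log2 fold change of CYP83A1 was -0.0084 (SE 0.080, adjusted p = 0.939), with a 95% interval from -0.22 to 0.20, or a ratio between 0.859 and 1.15. SUR1 is the C-S lyase that makes the thiohydroximate for aliphatic and indole glucosinolates alike. Its level was 2.63 and 2.82 in Col-0 and 2.52 and 2.45 in sahy9-1, a log2 fold change of -0.24 (SE 0.090, 95% interval -0.48 to -0.0015). The mutant arrays were lower and the unadjusted p was 0.0490, but the adjusted p was 0.0857. Without Col-0 replicate 1 it passed, at -0.33 with an adjusted p of 0.0474. UGT74C1, the glucosyltransferase of the aliphatic branch, lay at 2.24 and 2.42 in Col-0 and at 2.15 and 2.13 in sahy9-1. Both mutant arrays were lower, by less than the gap between the wild-type arrays for the nearest pair, and the log2 fold change was -0.19 (SE 0.086, 95% interval -0.42 to 0.034, adjusted p = 0.125).

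The wild-type arrays themselves differed over this route. In Col-0 9 of the 10 genes were higher on replicate 2 than on replicate 1, MYB28 being the exception, with a median gap of 0.20 on the log2 scale, while 50% of all genes tested were higher on replicate 2 and the median size of their gap was 0.11. The gaps were widest for BCAT4, at 0.41, and CYP79F1, at 0.39. In sahy9-1 9 of the 10 genes were lower on replicate 2, CYP79F2 being the exception, with a median gap of -0.082, while 45% of all genes tested were higher. The median size of the gap there was 0.086, beside 0.074 over all genes. Of the 19 other aliphatic genes tested 15 were higher on Col-0 replicate 2 and 13 were lower on sahy9-1 replicate 2. In 6 of the 10 genes the groups did not overlap, 2 higher and 4 lower in sahy9-1, beside 80.3% of all genes tested, 40% higher and 40.3% lower.

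**Figure D2:**
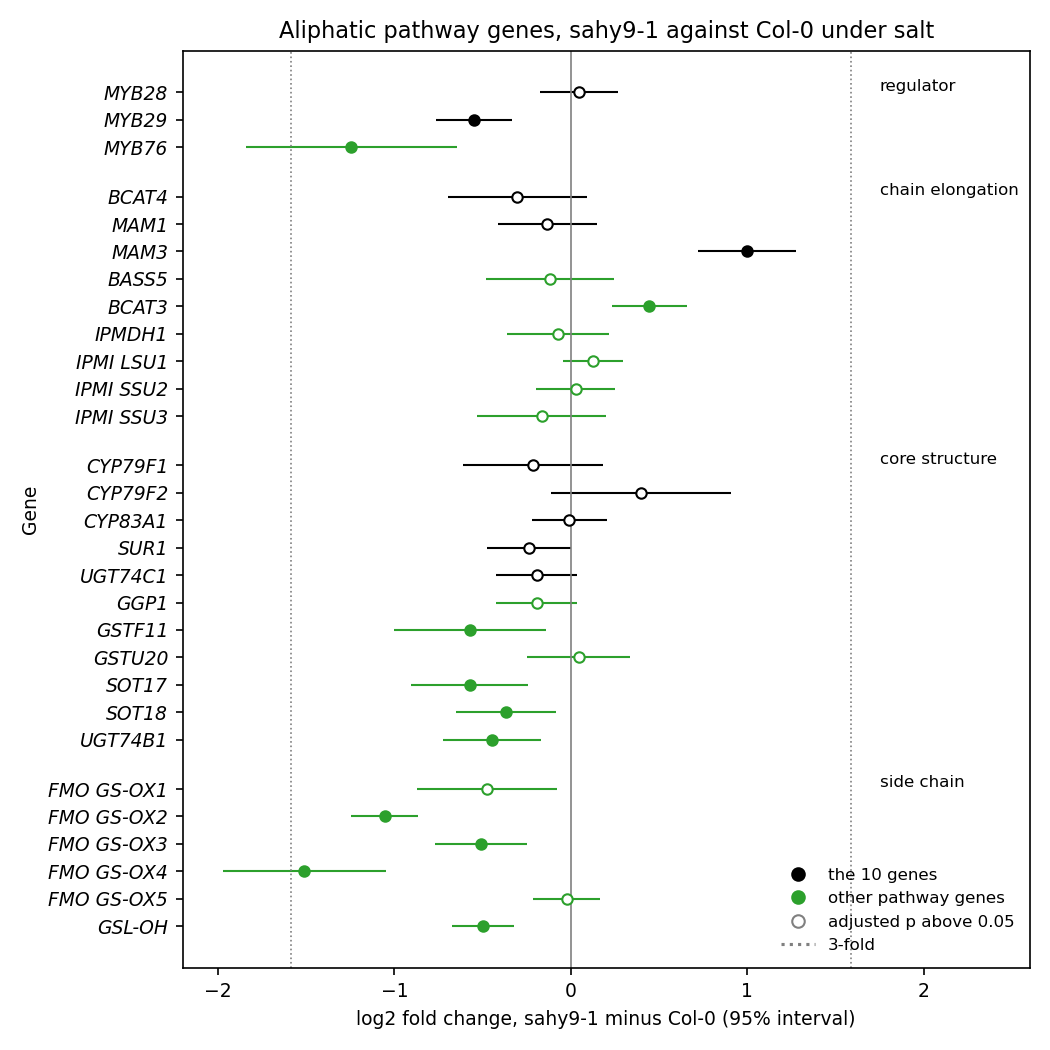
Log2 fold change in sahy9-1 against Col-0 with its 95% interval for the 10 genes (black) and the 19 other aliphatic pathway genes tested (green), grouped by role, with filled points for an adjusted p of 0.05 or less and dotted lines at 3-fold. Of the 9 elongation genes only MAM3 and BCAT3 were filled, both above 0, and 4 of the 6 side chain genes were filled, all below 0. Of all genes tested 25.4% passed the same adjusted p higher in sahy9-1 and 24% lower.

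The other aliphatic genes were listed from knowledge of the pathway. Of 21 listed, 19 were tested, and AOP2 and AOP3 were not analysed here. Of the 19, 10 passed the adjusted p (52.6%, beside 49.4% of all genes tested), 1 higher and 9 lower, MYB76 among the latter. None reached 3-fold. All 10 are named here, a choice made with their values known. The median log2 fold change of the 19 was -0.37. Without sahy9-1 replicate 1 or replicate 2 only 3 of the 19 passed each time, and 22.9% and 21.4% of all genes.

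The largest of these decreases was that of a side chain gene. FMO GS-OX4, one of the flavin monooxygenases that oxidise the sulfur of the side chain, lay at 2.82 and 2.43 in Col-0 and at 1.26 and 0.96 in sahy9-1. This gene was 2.85-fold lower (log2 fold change -1.51, SE 0.17, adjusted p = 0.00485), with both mutant arrays far below both wild-type arrays. FMO GS-OX2, of the same family, lay at -0.38 and -0.48 in Col-0 and at -1.46 and -1.51 in sahy9-1, a 2.08-fold decrease (log2 fold change -1.06, SE 0.071, adjusted p = 0.00216). Both kept their call with any 1 array left out. FMO GS-OX3 was 1.43-fold lower and the hydroxylase gene GSL-OH 1.41-fold lower, with adjusted p of 0.0148 and 0.00622. GS-OX3 did not pass without either mutant array (0.0502 and 0.0871), and GSL-OH did not without sahy9-1 replicate 2 (0.0533). FMO GS-OX1, at a log2 fold change of -0.47, and FMO GS-OX5, at -0.023, did not pass. Among the genes that complete the core, the sulfotransferase SOT17 was 1.49-fold lower, the glutathione transferase GSTF11 1.48-fold, the glucosyltransferase UGT74B1 1.36-fold and the sulfotransferase SOT18 1.29-fold (adjusted p from 0.0206 to 0.0441). Each of these 4 lost its call without 1 or more of the arrays, among them sahy9-1 replicate 1, and with normexp background correction. GGP1, a peptidase of the same step series, and GSTU20 did not pass.

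**Figure D3:**
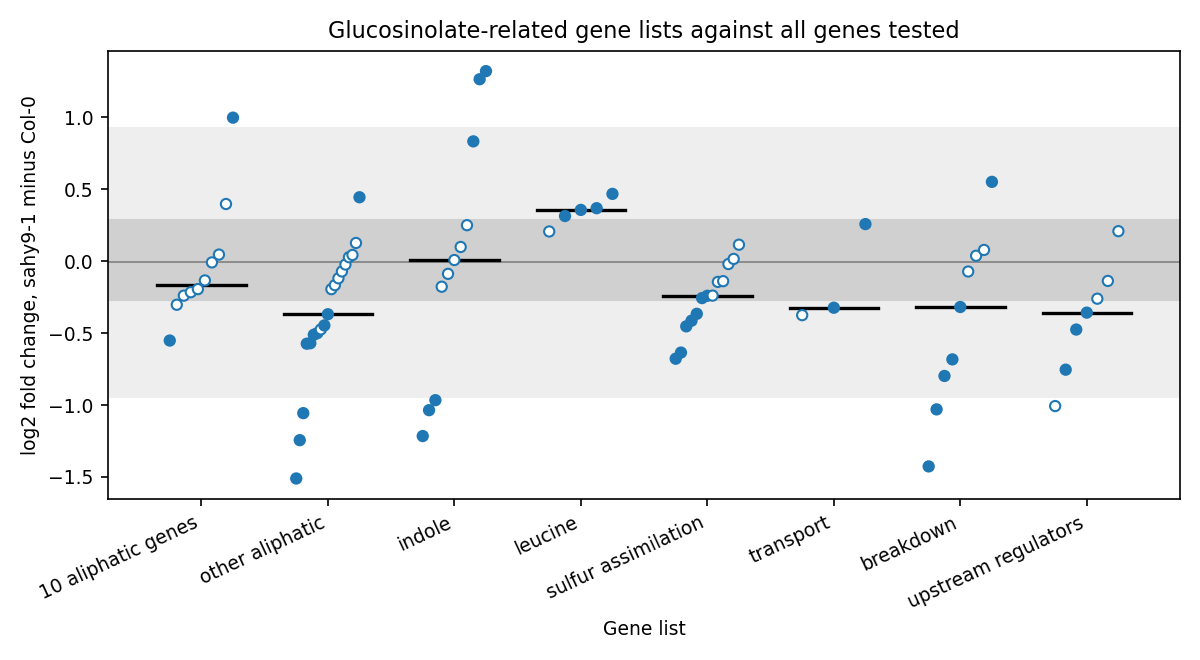
Log2 fold change in sahy9-1 against Col-0 of every tested gene in 8 glucosinolate-related lists (points, filled for an adjusted p of 0.05 or less, bar at the median), over a dark band from -0.27 to 0.29, the quartiles of all genes tested, and a light band from -0.94 to 0.93, their outer percentiles. The 10 genes had a median of -0.16, and of them only MAM3 lay above the light band.

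The indole branch, which makes glucosinolates from tryptophan and shares SUR1 with the aliphatic branch, held changes in both directions. Of 11 indole genes tested 3 rose and 3 fell (54.5%, beside 49.4% of all genes tested), with a median log2 fold change of 0.0081. MYB122, an activator and 1 of the 3 that rose, had intensities of 94.7 and 87.3 in Col-0 and 220 and 152 in sahy9-1, and was tested only because of its higher mutant values. CYP81F2, a hydroxylase of the indole ring, lay at -1.2 and -1.04 in Col-0 and at 0.18 and 0.23 in sahy9-1, a 2.50-fold increase (adjusted p = 0.00196). The indole activator MYB51 was 2.40-fold higher (adjusted p = 0.00463) and the activator MYB34 was 2.05-fold lower (adjusted p = 0.00222), both named after their values were seen.

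The MAM enzymes are related to those of leucine synthesis. All 5 leucine genes were higher on both mutant arrays, as were 40% of all genes tested, and 4 passed the adjusted p, where 25.4% of all genes rose, with log2 fold changes from 0.21 to 0.47, the largest that of the dehydrogenase IPMDH2 (1.38-fold, adjusted p = 0.0142). Without either mutant array IPMDH2 did not pass (adjusted p of 0.0774 and 0.0814). Of 13 genes of sulfur assimilation tested 7 fell and 0 rose (53.8% called, beside 49.4% of all genes, 24% lower), and the sulfate-activating ATPS3 fell most, by 0.68 on the log2 scale (adjusted p = 0.00876, and 0.0544 without sahy9-1 replicate 1).

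Among the upstream regulators 3 of 7 passed, all lower (42.9%, beside 49.4% of all genes tested, 24% lower). They were MYC4 (log2 fold change -0.48), IQD1 (-0.36) and SDI1 (-0.75), of which SDI1 is listed as a repressor. MYC2, a jasmonate-response factor that acts with the MYB activators, lay at 1.90 and 2.57 in Col-0 and at 0.81 and 1.64 in sahy9-1. The replicates of both genotypes were far apart, and its log2 fold change of -1.01 had an SE of 0.36 and an adjusted p of 0.0765. Of the 3 glucosinolate transporters 1 rose and 1 fell (66.7%, beside 49.4% of all genes tested), and the largest change, that of GTR1 at -0.38, did not pass (adjusted p = 0.0589). Without sahy9-1 replicate 2 it was -0.53 and passed (adjusted p = 0.0466). Of 9 genes of glucosinolate breakdown 1 rose and 5 fell (66.7%, beside 49.4% of all genes tested, 24% lower). The largest decrease was that of BGLU28, a beta-glucosidase gene known for its response to sulfur shortage, which was 2.69-fold lower (log2 fold change -1.43, SE 0.22, adjusted p = 0.00889).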

How the data were processed

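The deposited spot intensities come from Agilent Feature Extraction 10.7.1.1, run by the authors, and were already background-subtracted. A log2 table was deposited by the authors as well, scaled between arrays and centred on the wild type, and served as an alternative. The intensities were analysed in R 4.3.3 with limma 3.58.1. Control and outlier spots were dropped, log2 values were centred on the 75th percentile per array, and the brightest probe stood for a gene. Of the 34261 genes on the array 25433 matched a TAIR10.1 locus by transcript accession. The rest kept the name given on the array and were counted as genes, also in the shares of all genes tested. Testing required an intensity of 100 or more on both arrays of either genotype. The genotypes were compared without pairing, with Benjamini-Hochberg adjustment over 21732 genes and the p and fold thresholds of the methods, limma replacing their t-test because each genotype had 2 arrays. Background correction, scaling, signal filter, probe choice, variance model, test, block, single arrays, fold threshold and the log2 table were varied. The code was also tested on simulated data.

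The 10 genes and the other lists were chosen with earlier results of these data known. All 10 were named, and in each other list the gene with the largest change, as none there passed both thresholds. The remaining names were chosen after their values were seen. No sequences and no coordinates were used, and no untreated seedlings were analysed here.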

Additional observations from a re-analysis of the deposited data

How the results depend on the processing

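The median of all genes tested moved from -0.0041 to -0.10 with normexp background correction (offset 50) and stayed within 0.1 of 0 elsewhere. In all alternatives run, including a 2-fold threshold, 0 of the 10 genes passed both thresholds. The count past the adjusted p ranged from 1 to 5 when single arrays were left out and was 0 by the methods' t-test, and the count of other aliphatic genes ranged from 3 to 12, was 3 with normexp (12.6% of all genes passing), 3 without a signal filter (19.2%) and 0 by the t-test. MAM3 kept its direction in all 14 alternatives (0.88 to 1.12) and lost its call only by the t-test (adjusted p = 0.0775). MYB29 (-0.61 to -0.49) lost it by the t-test (adjusted p = 0.0819) and without sahy9-1 replicate 2. Genes that had not passed changed sign, with log2 fold changes under normexp of -0.14 for MYB28, 0.038 for CYP83A1 and -0.49 for CYP79F2, and over single arrays left out of -0.030 to 0.12 for MYB28 and -0.076 to 0.059 for CYP83A1. The cause was not tested. With the replicate number as a block, 3 of the 10 genes and 11 of the other aliphatic genes passed, beside 54.8% of all genes tested. Among the 10, CYP79F2 was the addition, at an adjusted p of 0.0246. MYC2 then had an adjusted p of 0.00133 and GTR1 of 0.0200. Deviations of the same-numbered arrays correlated at r = 0.438 across genes, but the labels do not say what a number shares.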
